A study of Mus musculus with 9 samples.

Results

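The 41 genes described here encode enzymes of glucose metabolism. Of these, 17 belong to glycolysis and its control, 5 to glycogen storage and breakdown, 5 to the entry of pyruvate into the mitochondrial pathways, and 14 to the citric acid cycle with glutamate dehydrogenase. They are named by gene symbol, with no threshold on a measured value, and all 41 were found among the 22075 genes counted. RNA bound to tagged ribosomes was purified by TRAP (translating ribosome affinity purification) and sequenced, to compare the mRNAs of whole astrocytes with those of the perivascular processes that astrocytes send to blood vessels, which end in endfeet. All mice were 2 months old, with no treatment named, and carried the transgene Aldh1l1:L10a-eGFP (strain Aldh1L1 JD130, genotype tg:Aldh1L1-L10aGFP). In this transgene the regulatory sequences of the astrocyte gene Aldh1l1, on a bacterial artificial chromosome, drive a ribosomal protein fused to green fluorescent protein, so cells are tagged only as far as these sequences are active in them. The 3 whole astrocyte TRAP libraries were each made from a single brain without choroid plexus, and the 6 endfeet TRAP libraries were each made from purified brain vessels of pooled mice. In such libraries, fewer astrocyte fragments and less RNA per fragment cannot be told apart.

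Glycolysis converts glucose to pyruvate in the cytosol and yields ATP without oxygen. Pyruvate is then either reduced to lactate or carried into mitochondria, where the pyruvate dehydrogenase complex turns it into acetyl-CoA and the citric acid cycle oxidizes it to carbon dioxide. Astrocytes hold most of the glycogen of the brain and are known for a high rate of glycolysis, and their endfeet lie between the blood, which brings glucose, and the rest of the tissue.

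Endfeet libraries held 2318745 to 13445661 gene counts and whole astrocyte libraries 35956972 to 43487888, so that 3 counts, taken as the smallest amount that could be seen, stood for 0.223 to 1.29 CPM (counts per 1000000 gene counts) and 0.0690 to 0.0834 CPM. These floors cover counting error only. Replicates of whole astrocyte TRAP were close to each other and endfeet libraries were not: over the genes, the common dispersion of counts was 0.0141 and 0.724. The numbers carried by the libraries place endfeet libraries 1 to 3 in one series and endfeet libraries 4 to 6 with all whole astrocyte libraries in another, without a statement of what they mean. The label of astrocyte RNA was checked against 10 markers. Slc1a3, Slc1a2, Gja1, Gfap and Fgfr3 were not called different between the groups, and Aqp4 was higher in endfeet TRAP (log2 fold change 1.67, edgeR adjusted p = 0.00636). S100b, Sox9 and Gjb6 were lower (log2 fold changes -3.59, -3.27 and -1.44, edgeR adjusted p = 2.42e-05, 7.12e-05 and 0.00133), and so was Aldh1l1, whose regulatory sequences drive the tag (log2 fold change -2.39, SE 0.433, edgeR adjusted p = 0.000939).

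In edgeR's quasi-likelihood test, 25 of the 40 mRNAs that could be tested were lower in endfeet TRAP than in whole astrocyte TRAP and 0 were higher. Among all 14403 genes tested, 13.9% were lower and 20.7% were higher by the same rule, an adjusted p of at most 0.05. At an unadjusted p of at most 0.05, 28 of the 40 were lower and 1, Hk2, was higher, against 19.0% and 25.6% of all genes. With DESeq2 28 were lower and 1, again Hk2, was higher, against 16.4% and 25.8% of all genes. The median log2 fold change of endfeet TRAP over whole astrocyte TRAP was -1.52 over the 40 genes and 0.10 over all genes tested. For 31 of the 41 mRNAs, all 6 endfeet libraries lay below all 3 whole astrocyte libraries, against 25.7% of all genes tested. Lower mRNAs were found in each of the 4 groups of enzymes: 10 of 16 tested in glycolysis (median log2 fold change -1.50), 2 of 5 in glycogen metabolism (-1.11), 3 of 5 at the entry of pyruvate (-1.25) and 10 of 14 in the citric acid cycle (-1.70). The 15 that were not called were Hk1, Hk2, Pfkfb2, Gapdh, Pgk1, Pgam1, Pygm, Gbe1, Pgm2, Pdhb, Pcx, Ogdh, Dlst, Suclg2 and Fh1. In 12 of the 41 genes, 10% or more of all stretches of 50 bases in the counted or coding transcript also occur in transcripts of other genes, and the authors removed reads that aligned more than once. Of the other 29 genes, 20 were lower. With limma voom, which lets each group have its own spread, 32 of the 40 were lower and 1, Hk2, was higher, against 31.1% and 27.2% of all genes.

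**Figure D1:**
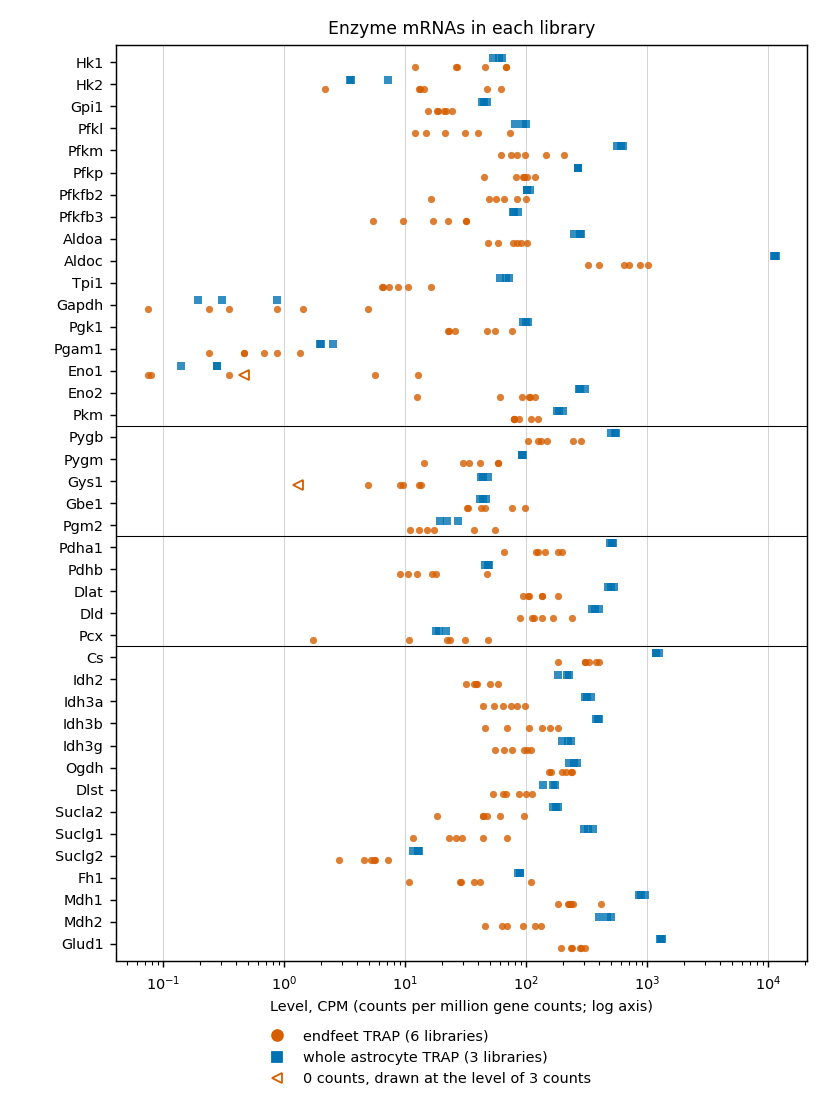
Level of each of the 41 mRNAs in each library, in CPM on a log axis, with 1 point for each endfeet TRAP library (6) and 1 square for each whole astrocyte TRAP library (3). Lines part the enzymes of glycolysis, glycogen, pyruvate entry and the citric acid cycle. Aldoc is the most counted of them, at 11070 to 11490 CPM in whole astrocyte TRAP and 324 to 1010 CPM in endfeet TRAP, and for most others the 6 endfeet points spread more widely than the 3 squares and lie to their left.

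Hexokinases add the first phosphate to glucose. The hexokinase mRNA of most cells, Hk1, was at 12.1 CPM in the lowest, 36.1 CPM at the median and 68.0 CPM in the highest endfeet library, and at 53.1, 59.0 and 62.8 CPM in the 3 whole astrocyte libraries. Its groups overlapped, with endfeet libraries 1 and 3 above all whole astrocyte libraries and libraries 2, 4, 5 and 6 below (log2 fold change -0.40, SE 0.501, edgeR adjusted p = 0.566). Within the series that holds both groups, that is with endfeet libraries 4 to 6 only, Hk1 was lower in endfeet TRAP (log2 fold change -1.46, edgeR adjusted p = 0.0182). Hk2, the inducible hexokinase, ran from 2.15 through a median of 13.8 to 61.2 CPM in endfeet TRAP and was at 7.15, 3.50 and 3.54 CPM in whole astrocyte TRAP. In Hk2, 5 of the 6 endfeet libraries lay above every whole astrocyte library and library 1 lay below them. Its log2 fold change of 2.47 (SE 0.928) did not pass the threshold (edgeR adjusted p = 0.0543), and it passed in 6 of 20 alternative fits, among them the one without endfeet library 1.

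Gpi1, glucose-6-phosphate isomerase, was at 15.3, 19.6 and 24.3 CPM (lowest, median and highest, the order kept for all genes that follow) in endfeet TRAP and at 42.7, 44.8 and 47.1 CPM in whole astrocyte libraries 1 to 3. All endfeet libraries were below, and the log2 fold change was -1.09 (SE 0.382, edgeR adjusted p = 0.0409). This call was lost in 7 of 20 alternative fits, with adjusted p from 0.0837 to 0.225, among them those without endfeet library 2 or without any of the 3 whole astrocyte libraries. Other genes hold 25.3% of its stretches of 50 bases.

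Phosphofructokinase, which commits sugar to glycolysis, is built from the products of Pfkl, Pfkm and Pfkp, and all 3 mRNAs were lower in endfeet TRAP in edgeR's test. Pfkm (chromosome 15, 98092589 to 98132451 in mm10) was at 61.5, 91.1 and 206.5 CPM in the lowest, the median and the highest endfeet library and at 565, 627 and 601.5 CPM in whole astrocyte TRAP (fitted log2 fold change -2.28, SE 0.391, edgeR adjusted p = 0.000627). Pfkp was at 44.4, 94.4 and 117 CPM against 267, 265 and 269 CPM (log2 fold change -1.52, SE 0.257, edgeR adjusted p = 0.000565). Pfkl was at 12.1, 26.2 and 73.2 CPM against 81.2, 93.1 and 98.4 CPM (log2 fold change -1.48, SE 0.459, edgeR adjusted p = 0.0245). The highest endfeet library was number 1 for Pfkm and number 3 for Pfkp and Pfkl, and no endfeet library reached a whole astrocyte library in any of the 3. Pfkl lost its call without endfeet library 2 or without whole astrocyte library 1, 2 or 3 (edgeR adjusted p from 0.0584 to 0.0924). Pfkfb2 and Pfkfb3 make and break fructose 2,6-bisphosphate, the activator of phosphofructokinase. Pfkfb3 was lower, at 5.38, 19.7 and 32.0 CPM in endfeet TRAP and 85.9, 77.0 and 78.3 CPM in whole astrocyte TRAP (fitted log2 fold change -1.99, SE 0.473, edgeR adjusted p = 0.00559). Pfkfb2 was at 16.4, 60.8 and 99.4 CPM against 102, 108 and 101 CPM and was not called (log2 fold change -0.63, SE 0.449, edgeR adjusted p = 0.303). Stretches of 50 bases shared with other genes make 65.7% of Pfkfb2 and 17.1% of Pfkp.

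Aldolases split fructose 1,6-bisphosphate into 2 triose phosphates, and Aldoc, the aldolase gene used as a marker of astrocytes, differed most among the 40 mRNAs tested. Aldoc (chromosome 11, 78322968 to 78327781 in mm10) was at 324 CPM in the lowest, 674 CPM at the median and 1010 CPM in the highest endfeet library, and at 11070, 11430 and 11490 CPM in the whole astrocyte libraries. The highest endfeet library, number 5, was far below the lowest whole astrocyte library. In edgeR's test the log2 fold change was -4.00 (SE 0.353, adjusted p = 3.12e-06), that is 16-fold lower in endfeet TRAP. Ordered by mean CPM among all genes counted, Aldoc was number 4 in whole astrocyte TRAP and number 148 in endfeet TRAP. Aldoa, the aldolase gene of muscle and many other cells, was also lower, at 48.6, 81.0 and 102 CPM against 249, 281 and 277 CPM (log2 fold change -1.71, SE 0.274, edgeR adjusted p = 0.000368). Tpi1, triosephosphate isomerase, which interconverts the 2 products, was at 6.45, 7.97 and 16.2 CPM against 60.7, 68.3 and 72.1 CPM (log2 fold change -2.79, SE 0.407, edgeR adjusted p = 0.000178). For Tpi1 as for Aldoa, all endfeet libraries were below all whole astrocyte libraries.

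The next steps, from Gapdh to Eno1, could be measured only in part. Reads that aligned more than once were removed by the authors, and of all stretches of 50 bases in the coding transcripts, 54.7% in Gapdh and 72.2% in Eno1 also occur in a transcript of another gene, with 68.0% in Pgk1 and 41.5% in Pgam1. Gapdh, glyceraldehyde-3-phosphate dehydrogenase, had 2 counts in endfeet library 3 and 0 in the other 5 on its most counted coding transcript, Gapdh-207, and 10, 7 and 39 counts in the whole astrocyte libraries. Its most counted transcript of any kind, one that keeps an intron, had 32, 3, 19, 3, 1 and 2 counts in endfeet libraries 1 to 6, against 11, 7 and 38 in the whole astrocyte libraries. Such counts, in both groups, are far below what is usual for this abundant mRNA, so nothing is read from its log2 fold change of 1.70 (SE 1.35, edgeR adjusted p = 0.351). Eno1, enolase 1, did not pass the filter on low counts, and its most counted coding transcript had 1 to 16 counts in the endfeet libraries against 71, 86 and 108 in the others. Pgk1, phosphoglycerate kinase, was at 22.4, 36.4 and 76.3 CPM in endfeet TRAP against 94.0, 103 and 99.7 CPM and was not called (log2 fold change -1.11, SE 0.457, edgeR adjusted p = 0.076), although no endfeet library reached a whole astrocyte library. It passed in 6 of 20 alternative fits, each time as lower in endfeet TRAP. Pgam1, phosphoglycerate mutase, stayed between 0.237 and 2.53 CPM in all 9 libraries (edgeR adjusted p = 0.161). Eno2, the enolase named after neurons, was lower, at 12.5, 98.3 and 119 CPM against 274, 302 and 280 CPM (log2 fold change -1.75, SE 0.442, edgeR adjusted p = 0.00817), a call lost with the library series as a covariate (edgeR adjusted p = 0.0558). The summed level of 9 neuron markers was also below in each endfeet library, at 0.100 to 0.188% of gene counts against 0.368 to 0.419%. This sum was mostly Snap25, with a mean of 776 CPM in endfeet TRAP and 3009 CPM in whole astrocyte TRAP. Of the 9, Tubb3, Snap25 and Nefl were called lower and 6 were not called. Stmn2 and Slc17a7, among those not called, had positive log2 fold changes (0.22 and 0.86). The part of neurons in the Eno2 result was not tested.

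Pyruvate kinase makes the last step, and its gene Pkm (chromosome 9, 59656368 to 59679375 in mm10) was at 78.3, 82.6 and 125 CPM in endfeet TRAP and 179, 199 and 186 CPM in whole astrocyte TRAP. The 6 endfeet libraries lay under all 3 others, with a log2 fold change of -0.93 (SE 0.26, edgeR adjusted p = 0.0145), a call lost without whole astrocyte library 1 or 3 (edgeR adjusted p = 0.0722 and 0.0615). In Pkm, 39.3% of the stretches of 50 bases also occur in other genes. The gene makes the enzymes PKM1 and PKM2 by using 1 of 2 exons of equal length, and these are shown because the choice between them is the best known feature of this gene. Both are exon 9 of their transcript and lie on the plus strand, at chr9:59675029-59675195 in transcript Pkm-202, which encodes PKM1, and at chr9:59675568-59675734 in transcript Pkm-201, which encodes PKM2 (GENCODE M21, mm10). They are printed 5′ to 3′, with capitals at the 64 of 167 bases that differ.
Pkm-202 exon 9: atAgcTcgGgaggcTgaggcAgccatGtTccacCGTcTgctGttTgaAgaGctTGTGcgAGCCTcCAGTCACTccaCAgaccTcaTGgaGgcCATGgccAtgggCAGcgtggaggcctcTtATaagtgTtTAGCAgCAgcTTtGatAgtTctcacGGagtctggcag
Pkm-201 exon 9: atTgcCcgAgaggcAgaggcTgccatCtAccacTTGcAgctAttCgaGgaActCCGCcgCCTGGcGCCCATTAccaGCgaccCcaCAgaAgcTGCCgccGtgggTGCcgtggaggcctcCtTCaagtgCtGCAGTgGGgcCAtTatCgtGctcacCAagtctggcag
A read was counted on every transcript it overlapped, so reads outside this exon are in both counts. Pkm-201 has 558 bases of its own, untranslated ends included, and Pkm-202 only the 167 of its exon. How many of the 558 also occur in other genes was not examined. Pkm-202 had more counts than Pkm-201 in all 9 libraries. Endfeet libraries 1 to 6 had an excess of 53, 22, 86, 48, 49 and 2 counts, and whole astrocyte libraries one of 534, 737 and 811. As a share of the Pkm-202 count this was 0.69 to 9.43% in endfeet TRAP against 8.28 to 10.3% in whole astrocyte TRAP, and the groups overlapped. The excess is a lower bound on reads that touch only the Pkm-202 exon, it gives no ratio of the 2 exons, and it was chosen for display after its values were seen.

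**Figure D2:**
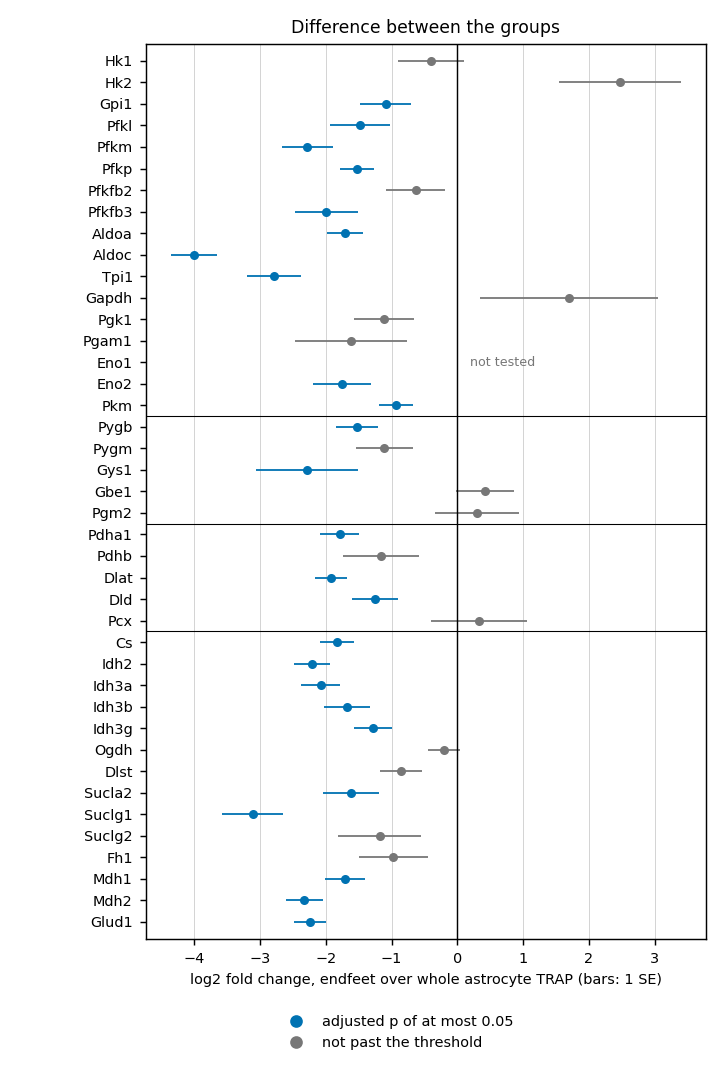
Log2 fold change of endfeet TRAP over whole astrocyte TRAP from edgeR for each mRNA, with bars of 1 SE, derived from the F statistic of the test. Blue points passed an adjusted p of at most 0.05 and gray points did not, and Eno1 was not tested. All blue points lie left of 0, from Aldoc at -4.00 to Pkm at -0.93, and Hk2 stands apart at 2.47 with a wide bar.

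In glycogen metabolism, the mRNA of brain glycogen phosphorylase and that of glycogen synthase were lower in endfeet TRAP, and the branching enzyme was not called different. Pygb, the brain phosphorylase, which releases glucose units, was at 104, 141 and 285 CPM in endfeet TRAP and 501, 546 and 543 CPM in whole astrocyte TRAP (fitted log2 fold change -1.52, SE 0.32, edgeR adjusted p = 0.00264). Pygm, the muscle phosphorylase, was at 14.2, 37.6 and 58.2 CPM against 91.3, 93.1 and 92.4 CPM. Its groups did not overlap, but its log2 fold change of -1.11 (SE 0.43) did not pass the threshold (edgeR adjusted p = 0.0614), which it passed in 7 of 20 alternative fits. Gys1, glycogen synthase, had no count in endfeet library 6, where a count of 0 allows up to 1.29 CPM, and was at a median of 9.30 and a highest value of 13.5 CPM in endfeet TRAP against 41.9, 48.4 and 43.9 CPM. All 6 endfeet libraries were below, and its log2 fold change of -2.29 (SE 0.773, edgeR adjusted p = 0.0355) passed in 11 of 19 alternative fits. It did not pass without endfeet library 2 or 3, or without whole astrocyte library 1, 2 or 3 (edgeR adjusted p from 0.067 to 0.105). Gbe1, the glycogen branching enzyme, was at 32.6, 43.9 and 97.1 CPM in endfeet TRAP against 46.1, 41.2 and 43.6 CPM. Endfeet libraries 4 and 6 were above and 2 and 3 below all whole astrocyte libraries, with a log2 fold change of 0.42 (SE 0.444, edgeR adjusted p = 0.49). Pgm2 (chromosome 5, 64092950 to 64128351), of the phosphohexose mutase family, was at 10.9, 16.2 and 55.5 CPM against 19.3, 27.0 and 22.0 CPM (log2 fold change 0.30, SE 0.64, edgeR adjusted p = 0.751), and the sign of this value changed without endfeet library 1.

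The pyruvate dehydrogenase complex has 3 enzymes, E1 from Pdha1 and Pdhb, E2 from Dlat and E3 from Dld. Pdha1 was at 64.8, 134 and 197 CPM in endfeet TRAP and 525, 508 and 488 CPM in whole astrocyte TRAP (fitted log2 fold change -1.79, SE 0.291, edgeR adjusted p = 0.000413). Dlat was at 93.7, 120.1 and 181.5 CPM against 532.5, 503 and 475 CPM (log2 fold change -1.92, SE 0.248, edgeR adjusted p = 6.85e-05). Dld, which also serves the oxoglutarate dehydrogenase complex, was at 88.2, 124.5 and 239 CPM against 399.5, 372 and 347 CPM (log2 fold change -1.25, SE 0.351, edgeR adjusted p = 0.0147). In these 3 genes no endfeet library reached a whole astrocyte library, and the call of Dld was lost without whole astrocyte library 1 (edgeR adjusted p = 0.0713). In Pdha1, 16.9% of the stretches of 50 bases occur in other genes. Pdhb was at 47.2 CPM in endfeet library 1 and at 9.02 to 18.1 CPM in the other 5, against 48.0, 48.8 and 45.9 CPM. With library 1 it was not called (log2 fold change -1.16, SE 0.578, edgeR adjusted p = 0.139), and without it it was lower (log2 fold change -1.82, edgeR adjusted p = 0.00203). Of its stretches of 50 bases, 30.3% occur in another gene. Pcx, pyruvate carboxylase, which feeds oxaloacetate to the cycle and in the brain is known as an enzyme of astrocytes, ran from 1.73 through 22.7 to 48.3 CPM in endfeet TRAP and was at 17.8, 19.1 and 21.8 CPM in whole astrocyte TRAP. In Pcx, 4 endfeet libraries were above and 2 below all whole astrocyte libraries (log2 fold change 0.33, SE 0.731, edgeR adjusted p = 0.758).

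In the citric acid cycle, mRNAs of 10 of 14 enzymes were lower and 12 of 14 had all endfeet libraries below all whole astrocyte libraries. Cs, citrate synthase, which starts the cycle, was at 184, 318 and 400 CPM in endfeet TRAP and 1239, 1188 and 1189 CPM in whole astrocyte TRAP (fitted log2 fold change -1.83, SE 0.261, edgeR adjusted p = 0.000155). The NAD-dependent isocitrate dehydrogenase is built from Idh3a, Idh3b and Idh3g, and all 3 mRNAs were lower. Idh3a was at 44.0, 69.4 and 98.2 CPM against 317, 340 and 305 CPM (log2 fold change -2.08, SE 0.303, edgeR adjusted p = 0.000177). Idh3b was at 45.2, 120 and 182 CPM against 377, 399 and 389 CPM (log2 fold change -1.68, SE 0.346, edgeR adjusted p = 0.00226). Idh3g, counted on a transcript that keeps an intron, was at 55.3, 85.6 and 109 CPM against 197, 223 and 235 CPM (log2 fold change -1.28, SE 0.293, edgeR adjusted p = 0.00453). For these 3 subunits no endfeet library reached a whole astrocyte library. Idh2, the mitochondrial NADP-dependent enzyme, was at 31.9, 38.7 and 57.9 CPM against 183, 218.5 and 225 CPM (log2 fold change -2.21, SE 0.28, edgeR adjusted p = 6.09e-05).

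Of the oxoglutarate dehydrogenase complex, E1 and E2 were not called, and the shared E3, Dld, was lower. Ogdh, its E1, was at 154, 205 and 238 CPM in endfeet TRAP and at 225, 262 and 248 CPM in whole astrocyte TRAP. The groups overlapped, since endfeet libraries 1 and 3 lay within the range of whole astrocyte libraries, and the log2 fold change was -0.20 (SE 0.249, edgeR adjusted p = 0.572). Ogdh was not called in any of 20 alternative fits. Dlst, its E2, was at 52.6, 77.4 and 111 CPM against 136, 167 and 172.5 CPM, with all endfeet libraries below (log2 fold change -0.86, SE 0.319, edgeR adjusted p = 0.0515), and passed in 8 of 20 alternative fits as lower. The difference between Ogdh and the other enzymes was not tested.

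Succinyl-CoA ligase pairs the subunit of Suclg1 with that of Sucla2, which uses ADP, or of Suclg2, which uses GDP. Suclg1 had the second largest change among the 40 mRNAs tested, from 299, 322 and 352 CPM in whole astrocyte TRAP to 11.6, 27.7 and 69.6 CPM (lowest, median and highest) in endfeet TRAP, a log2 fold change of -3.11 (SE 0.463, edgeR adjusted p = 0.00021). Sucla2 was at 18.1, 45.3 and 95.0 CPM against 177, 182 and 165 CPM (log2 fold change -1.62, SE 0.428, edgeR adjusted p = 0.0103). For both, endfeet library 6 was the lowest and endfeet library 1 the highest, still below all whole astrocyte libraries. Suclg2 was at 2.84, 5.39 and 7.22 CPM against 11.5, 12.9 and 12.6 CPM and was not called (log2 fold change -1.18, SE 0.627, edgeR adjusted p = 0.165), and 29.3% of its stretches of 50 bases occur in another gene.

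Fh1, fumarase, was at 109 CPM in endfeet library 6 and at 10.8 to 41.6 CPM in the other 5, against 84.6, 89.4 and 89.2 CPM in whole astrocyte TRAP. It was not called with all libraries (log2 fold change -0.97, SE 0.53, edgeR adjusted p = 0.173). Without endfeet library 6, the one with the fewest gene counts, it was lower (log2 fold change -1.54, edgeR adjusted p = 0.0047). Both malate dehydrogenases were lower. Mdh1, the cytosolic enzyme, was at 183, 229 and 410.1 CPM against 894, 959 and 861 CPM (log2 fold change -1.71, SE 0.3, edgeR adjusted p = 0.000729). Mdh2, the mitochondrial enzyme, was at 45.3, 81.2 and 133 CPM against 395, 466 and 498 CPM (log2 fold change -2.33, SE 0.282, edgeR adjusted p = 4.15e-05). Endfeet library 1 was the highest for Mdh1 and the lowest for Mdh2. Glud1, glutamate dehydrogenase, by which glutamate carbon enters the cycle, was at 192, 258 and 307 CPM against 1320, 1304 and 1283 CPM (log2 fold change -2.24, SE 0.241, edgeR adjusted p = 1.58e-05), with the 2 groups far apart.

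Between genes, levels were compared per length of the counted transcript. Aldoc led both groups at 4068 ± 81.2 CPM per kb in whole astrocyte TRAP (SD, n = 3) and 236 ± 95.1 CPM per kb in endfeet TRAP (SD, n = 6). Behind it in whole astrocyte TRAP came Mdh1 at 426 ± 23.5, Cs at 412 ± 10.1, Glud1 at 384 ± 5.54 and Mdh2 at 311 ± 36.3 CPM per kb. In endfeet TRAP, Mdh1 at 119 ± 37.6, Cs at 108.5 ± 26.0, Glud1 at 75.3 ± 12.1 and Idh3b at 71.6 ± 32.5 CPM per kb followed. Of the neighbors in these orders, Mdh1 and Cs differed in both groups by less than the SD of Mdh1, and Glud1 and Idh3b differed in endfeet TRAP by less than either SD. Among the endfeet libraries the median coefficient of variation of the 41 levels was 43.5%, and among whole astrocyte libraries it was 5.67%. Library 1 was the highest for 14 and the lowest for 11 of the 41 mRNAs, library 2 for 0 and 9, and library 3 for 11 and 2. Library 6, with the fewest gene counts, was the highest for 6 and the lowest for 14.

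Where several genes encode the same enzyme, the share of one of them within a library does not depend on how libraries are scaled. For 10 such shares, from counts per kilobase, the difference of group means was given a two-sided exact permutation p from the 84 ways to divide the 9 libraries, and the smallest possible p is 0.0119. Aldoc made 69.9 to 86.9% of aldolase counts per kilobase (Aldoa and Aldoc together) in endfeet TRAP against 95.8 to 96.1% in whole astrocyte TRAP. The means were 81.3 ± 6.53% (SD, n = 6) and 95.9 ± 0.176% (SD, n = 3), a difference of -14.6 percentage points seen in 6 of 6 endfeet libraries (two-sided exact permutation p = 0.0119, 0.119 after Benjamini-Hochberg adjustment over the 10 shares). A single share at the smallest p cannot pass a threshold of 0.05 after this adjustment, and none of the 10 did. The Aldoc share in endfeet libraries 4 to 6, of the same series as whole astrocyte TRAP, was 81.0 ± 9.63%. From counts not divided by length, the difference was -9.12 percentage points. Aldoa shares 13.5% of its stretches of 50 bases with other genes and Aldoc none.

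Pfkfb3 made 2.25 to 18.9% of the sum of Pfkfb2 and Pfkfb3 in endfeet TRAP against 20.5 to 23.3% in whole astrocyte TRAP, below in 6 of 6 endfeet libraries by a mean of -10.1 percentage points (exact permutation p = 0.0357, adjusted 0.179). The size of this difference rests on how counts were taken, at -17.7 percentage points when they were not divided by length and -25.9 when they were summed over transcripts. Summed counts, here and below, were not divided by length either. A read adds to each transcript it overlaps, and 15 transcripts were counted for Pfkfb3 and 4 for Pfkfb2. Hk2 made 2.41 to 79.7% of the hexokinase sum in endfeet TRAP against 4.20 to 9.46% in whole astrocyte TRAP, above in 5 of 6 endfeet libraries and below in library 1 (difference 27.3 percentage points, exact permutation p = 0.131, adjusted 0.31). In endfeet libraries 4 to 6 the Hk2 share was 55.1 ± 26.0%, and without library 6 the difference was 18.0 percentage points. Among the 3 phosphofructokinase genes, Pfkm had the largest share in each library but endfeet library 3, where Pfkp made 38.1%, with 35.4 to 83.3% in endfeet TRAP against 69.9 to 71.5%, below in 5 of 6 endfeet libraries and above in library 1 (exact permutation p = 0.155, adjusted 0.31). Pfkp made 12.2 to 41.9% against 20.5 to 22.5%, above in the same 5 libraries (exact permutation p = 0.143, adjusted 0.31). The shares of Pfkl, Pygm, Suclg2 and Mdh2 overlapped between the groups, with differences of 4.18, 4.34, 4.23 and -8.21 percentage points and adjusted exact permutation p of 0.384 to 0.417. Leaving out 1 endfeet library moved each by over 1.5 times, to 1.35 for Pfkl without library 3, 2.10 for Pygm and -4.19 for Mdh2 without library 1, and 1.95 for Suclg2 without library 6. With endfeet libraries 4 to 6 only, the differences were 2.12 for Pfkl, -0.437 for Pygm, 5.40 for Suclg2 and -3.06 for Mdh2, and with counts summed over transcripts they were 1.28, 7.80, 2.33 and -6.46. For the enolases, the Eno2 share of 86.3 to 100% in endfeet TRAP against 99.9% in whole astrocyte TRAP reflects that Eno1 was hardly counted and is not read further.

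**Figure D3:**
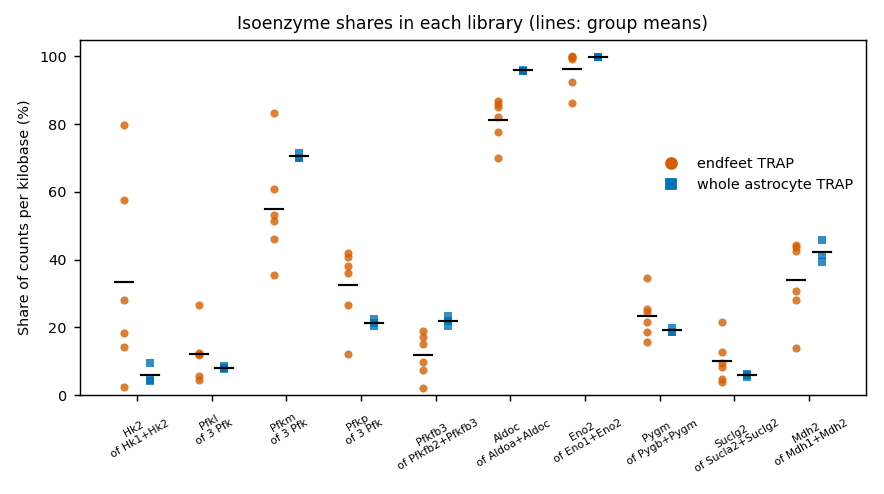
Share of one gene among the genes that encode the same enzyme, in percent of counts per kilobase, for each endfeet TRAP library (6 circles) and whole astrocyte TRAP library (3 squares), with group means as black lines. The Aldoc share lies at 69.9 to 86.9% in endfeet TRAP against 95.8 to 96.1% in whole astrocyte TRAP without overlap, and the Hk2 share spreads from 2.41 to 79.7% among endfeet libraries.

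Promoters of the members were read from RefSeq, from 250 bases before to 50 bases after the start nearest to that of the counted transcript, for 40 of the 41 genes (GRCm38.p6). For Suclg2 that start lies 25964 bases from the one of the counted transcript, so its window, which held none of the strings searched, is not the promoter of that transcript. The core bound by hypoxia-inducible factors, for which glycolytic genes are known, was searched on both strands as ACGTG and as GCGTG. The first was in 18 of 40 promoters of the enzymes, 45.0%, and in 24.9% of 11140 promoters of genes tested. ACGTG was found in the promoters of Hk2, Pfkfb3 and Aldoc, and also in those of Ogdh and Pcx, so it was held by genes that were lower and by genes that were not called. GCGTG was in 19 of 40, 47.5%, against 50.6%, and either in 27 of 40, 67.5%, against 62.0%. TCAAGGTCA, the element of estrogen-related receptors, was in none of the 40 and in 0.206% of all. Some letters counted as ACGTG are also part of CACGTG, the E-box, which then counts on both strands. The stretches before the starts of Hk2 and Pfkfb3 are shown because the log2 fold changes of these inducible genes had opposite signs, although that of Hk2 did not pass the threshold, and they were picked after the values were seen. They are on the minus strand, at chr6:82774455-82774704 and chr2:11502102-11502340, and are printed 5′ to 3′ with matches to ACGTG or GCGTG on either strand in capitals.
Hk2: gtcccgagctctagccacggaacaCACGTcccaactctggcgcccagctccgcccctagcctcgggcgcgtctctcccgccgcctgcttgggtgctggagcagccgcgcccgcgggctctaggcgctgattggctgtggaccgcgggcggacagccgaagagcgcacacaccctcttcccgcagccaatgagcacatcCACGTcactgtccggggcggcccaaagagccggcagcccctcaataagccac
Pfkfb3: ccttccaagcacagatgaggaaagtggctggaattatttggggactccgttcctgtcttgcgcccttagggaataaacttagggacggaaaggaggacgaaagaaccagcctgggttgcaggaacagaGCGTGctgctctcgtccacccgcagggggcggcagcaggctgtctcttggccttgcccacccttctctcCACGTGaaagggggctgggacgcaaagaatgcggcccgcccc
Hk2 has 2 separate matches to ACGTG here, and Pfkfb3 has an E-box, counted as 2 matches, and 1 match to GCGTG. A match is a string of letters, and binding was not measured.

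Beyond the 41 mRNAs, 68 other genes of the same pathways were listed and 58 could be tested. Of these, 23 were lower in endfeet TRAP, 6 were higher and 29 were not called (median log2 fold change -0.98). Among all 14403 genes tested, 13.9% were lower and 20.7% were higher by the same rule. These shares also stand beside the counts of each list of genes that follows. Of 11 tested genes of other glycolysis and lactate, 2 were lower and 2 were higher (median log2 fold change -0.56). In gluconeogenesis, the making of glucose, 0 of 2 tested genes were lower and 1 was higher. In the control of pyruvate dehydrogenase, 5 of 9 were lower and 0 were higher. Around pyruvate, Ldhb, the lactate dehydrogenase subunit of oxidative tissues, was lower (69.3 ± 24.6 CPM, SD, n = 6, against 587 ± 33.0, SD, n = 3; log2 fold change -2.95, SE 0.337, edgeR adjusted p = 2.62e-05). Ldha, the subunit of glycolytic tissues, was at 84.03 ± 19.9 against 137 ± 3.18 CPM and was not called (log2 fold change -0.62, SE 0.278, edgeR adjusted p = 0.103). The kinases Pdk2 and Pdk4, which switch pyruvate dehydrogenase off, had log2 fold changes of -2.74 and -3.18, and the phosphatase Pdp1, which switches it on, had -1.72 (edgeR adjusted p = 0.000147, 0.00036 and 0.0186). Pdk1 was not called (log2 fold change 0.19, edgeR adjusted p = 0.756).

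Of 16 other glycogen genes, 15 could be tested and 5 were lower. They were Pgm1, the main phosphoglucomutase (log2 fold change -2.82), Ugp2, which makes UDP-glucose (-2.91), Ppp1r3c, a subunit that targets protein phosphatase to glycogen (-2.63), and Phkg1 and Phkg2, catalytic subunits of phosphorylase kinase (-3.02 and -1.45). Gaa, the lysosomal alpha-glucosidase, was higher, at 97.0 to 305 CPM against 45.6 ± 5.93 CPM (log2 fold change 2.24, SE 0.389, edgeR adjusted p = 0.000686). In the citric acid cycle and next to it, 7 of 13 were lower, among them all 4 subunits of succinate dehydrogenase, Sdha to Sdhd, with log2 fold changes of -1.17, -2.49, -1.88 and -2.27 (edgeR adjusted p from 8.87e-05 to 0.0067 over these 4). In the pentose phosphate pathway 4 of 8 were lower (G6pdx, Pgls, Rpe and Taldo1) and 2 were higher. H6pd, the glucose-6-phosphate dehydrogenase of the endoplasmic reticulum, was at 70.7 ± 24.9 CPM in endfeet TRAP and 2.07 ± 0.873 CPM in whole astrocyte TRAP (fitted log2 fold change 5.20, SE 0.565, edgeR adjusted p = 1.77e-05). Rpia, ribose-5-phosphate isomerase, was at 23.6 ± 6.31 against 5.26 ± 0.943 CPM (log2 fold change 2.24, SE 0.542, edgeR adjusted p = 0.00627).

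The 41 mRNAs together made 0.283 to 0.434% of gene counts in endfeet TRAP against 2.12 to 2.20% in whole astrocyte TRAP. Aldoc alone made 0.0324 to 0.101% and 1.11 to 1.15%, and the other 40 made 0.243 to 0.338% and 1.01 to 1.06%. Markers of other cell types moved with the groups. All 10 endothelial markers were higher in endfeet TRAP, with a summed level of 0.264 to 0.556% of gene counts against 0.000754 to 0.000941%, and so were all 10 mural markers (0.337 to 0.847% against 0.00424 to 0.00518%), all 8 fibroblast markers (0.236 to 0.613% against 0.0100 to 0.0165%), all 6 ependymal and choroid plexus markers (0.673 to 7.26% against 0.00497 to 0.150%), 3 of 3 tested erythrocyte markers (0.00341 to 0.0125% against 0.000133 to 0.000232%) and 6 of 10 microglia and macrophage markers (0.0147 to 0.0315% against 0.00179 to 0.00209%). Of the neuron markers 3 of 9 and of the oligodendrocyte markers 1 of 8 were lower, at 0.0224 to 0.0450% against 0.0649 to 0.0665% for the latter list. The 10 astrocyte markers summed to 1.07 to 2.94% in endfeet TRAP against 1.47 to 1.68% in whole astrocyte TRAP, with 1 higher, 4 lower and 5 not called. This overlap rests on Slc1a2, since the other 9 summed to 0.288 to 0.656% against 0.740 to 0.777%. The endothelial marker Ly6c1 and the erythrocyte markers Hba-a1 and Slc4a1 had 0 counts in all 3 whole astrocyte libraries. In the endfeet libraries Hba-a1 was hardly counted either, with 0 or 1 counts, and Slc4a1 had 0 to 181 counts. The part of these cell types in the levels of the enzymes was not tested. Endfeet library 1, the highest of its group for Pfkm, Pdhb and Mdh1 and the lowest for Hk2 and Mdh2, had the highest level of ependymal and choroid plexus markers, 7.26%, and the part of these cells in those values was not tested. Without endfeet library 1, 29 of the 40 enzyme mRNAs were lower and Hk2 was higher, against 18.4% and 23.5% of all genes in that fit.

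**Figure D4:**
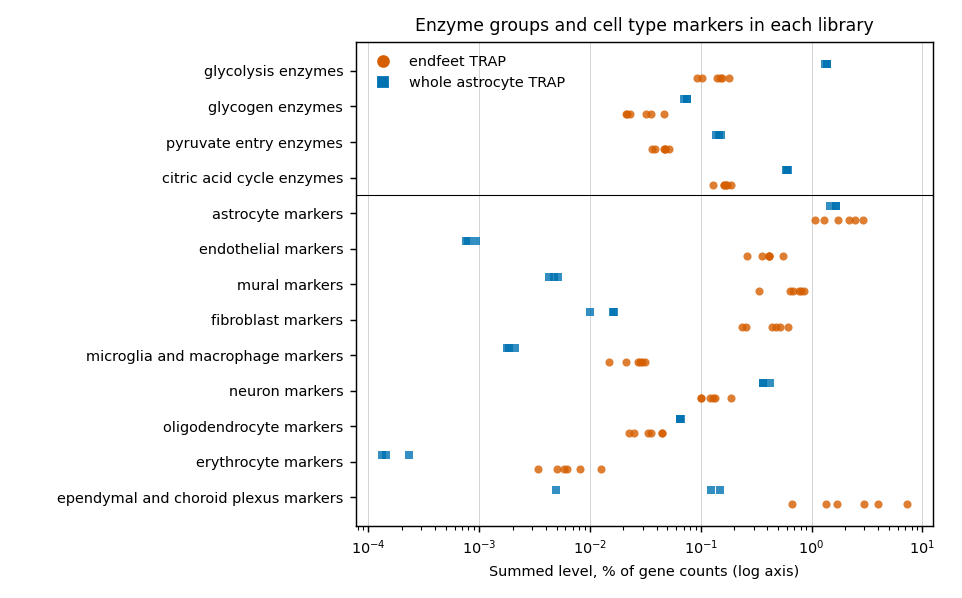
Summed level of the enzymes of each group and of marker genes of 9 cell types in each library, in percent of gene counts on a log axis, with circles for the 6 endfeet TRAP and squares for the 3 whole astrocyte TRAP libraries. All enzyme groups lie lower in endfeet TRAP, with the citric acid cycle at 0.130 to 0.189% against 0.586 to 0.613%, endothelial, mural and fibroblast markers lie higher, and the astrocyte markers overlap, which they do not without Slc1a2.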

How the data were processed

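TRAP RNA of 3 whole astrocyte and 6 endfeet libraries was amplified and sequenced. The authors aligned reads to mm10 with Bowtie, discarded those with several alignments and counted overlaps with Ensembl 75 transcripts with HTSeq 0.5.3, within Eoulsan. The deposited values are raw counts per transcript, neither normalized nor pooled, and a read adds to every transcript it overlaps. Of 75466 transcripts, 73164 were matched to GENCODE M21 of the same build and 2302 were left out, and each of 22075 genes was reduced to the transcript whose CPM, added over libraries, was highest.

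Groups, taken from the titles of the samples, entered one fit of all 9 libraries in edgeR 4.0.16 (R 4.3.3, TMM, filterByExpr, quasi-likelihood test, Benjamini-Hochberg adjustment over 14403 genes, threshold 0.05). The SE of a log2 fold change is its absolute value divided by the square root of the F statistic of this test. It is therefore not independent of the p-value. Each whole astrocyte library came from its own brain, and whether each endfeet library came from its own pool of mice was not established here, so p-values measure the spread between these libraries. No measured value enters the rule for the 41 genes, but they and all lists were chosen with earlier results of these data known. All 41 genes are named, other genes where they passed the threshold or define a cell type, with exceptions such as Ldha and Pdk1, named after their values were seen, and 1 other gene is counted but not reported by name here. Shares of isoenzyme genes were computed from counts per kilobase and compared with exact permutation tests. Stretches of 50 bases were compared between the transcripts of all genes. Alternatives were DESeq2 1.42.0, limma 3.58.1 voom, other size factors, library totals, other filters on low counts, summed transcripts, the library series, a replicate block, a log2 fold change of at least 1 and each library left out. The highest coding transcript and only genes with under 10% of stretches shared were added after the data were seen. The tests were run on simulated counts with the same dispersion in both groups. The groups here had unequal dispersion, so the simulation cannot show how the tests behave on these data. Promoters are from RefSeq. Tables were handled in Python 3.11.15 with pandas 2.3.3 and numpy 2.4.6, and plots were drawn with matplotlib 3.10.9.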

Additional observations from a re-analysis of the deposited data

Results flagged for a closer look

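For 51 sets of values, the levels of the 41 mRNAs and the 10 isoenzyme shares in the 6 endfeet TRAP libraries, the gap between the highest or lowest library and the next was compared with the range of the group (Dixon's ratio, at its 95% critical value). In 5 of them 1 library stood apart, and chance gives about 1 in 20 such sets. Endfeet library 1 was high for Pdhb, at 47.2 CPM against a median of 12.5 CPM in the other 5, for Mdh1, at 410 CPM against 225 CPM, and for Gapdh, at 4.92 CPM against 0.347 CPM, the last from few counts of a transcript that keeps an intron. Endfeet library 6 was high for Fh1, at 109 CPM against 29.0 CPM. Endfeet library 3 was high for the Pfkl share of the 3 phosphofructokinase genes, at 26.5% against 12%.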

How the results depend on the processing

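Over all alternatives the number of mRNAs lower in endfeet TRAP ranged from 20 to 32, against 25 in the main fit, and from 20 to 29 with 1 library left out. The fits tested 36 to 41 of the 41 mRNAs. The 32 came from limma voom, where 31.1% of all genes were lower. Without whole astrocyte library 1 there were 20, and 1171 of 14834 genes were lower in that fit. Of 29 genes with under 10% of stretches shared with other genes, 20 were lower and 0 higher. Of the 25 called lower, 19 were called in every alternative, the others being Gpi1, Pfkl, Eno2, Pkm, Gys1 and Dld, and none changed sign. Of 794 values of single mRNAs under the alternatives, 722 kept their direction and side of the threshold, 23 lost a call, 40 gained one and 9 changed sign. The number higher was 0, and 1, Hk2, with DESeq2, with limma voom, with at least 10 counts in every library, with the library series as a covariate, with endfeet libraries 4 to 6 only and without endfeet library 1, so that it ranged from 0 to 1 with 1 library left out. Values that changed sign, none of them called, were those of Gapdh with summed transcripts (-0.60) and the series covariate (-0.47), Pcx without endfeet library 5 (-0.12, with up to 0.57 when others were left out), Pgm2 with limma voom (-0.34), with endfeet libraries 4 to 6 (-0.01) and without endfeet library 1 (-0.27, with up to 0.51 when others were left out), and, with the replicate number as a block, Pgm2 (-0.18), Gbe1 (-0.20) and Hk1 (0.09). The replicate block, for libraries numbered 1 to 3 in both groups, gave 0 higher and 26 lower. Deviations of libraries with the same number correlated at -0.0358, 0.0181 and 0.0382, and those with unlike numbers at -0.0548 to 0.0369. So few pairs, with endfeet libraries that spread widely, cannot decide whether the numbers pair them. Of all genes, 2003 were lower and 2987 higher, against 4481 lower with limma voom, and 1171, 1421 and 1215 lower with 1956, 1757 and 1942 higher without whole astrocyte library 1, 2 or 3. The median of all genes was 0.10 on the log2 scale, and -0.29 with limma voom, -0.31 with the block and -0.16 with endfeet libraries 4 to 6. Causes were not tested. In endfeet library 6, where 3 counts are 1.29 CPM, Gapdh, Pgam1 and Gys1 had at most 3 counts.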
